A study of Homo sapiens with 8 samples.

Results

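Antiviral interferon effectors are genes that cells switch on in response to interferon and whose products act on viral RNA, viral proteins or the membranes that viruses cross. A list of 55 such genes was looked up by symbol in a table of normalized RNA-seq counts from PANC-1 cells, a human pancreatic ductal carcinoma line. Of these, 51 were among the 13307 genes in the table, and *IFI27*, *IFI44L*, *RSAD2* and *EPSTI1* were not analysed here. The rule used symbols and no measured value, but the list was chosen with earlier results of these data known. The study depleted PHF13, a PHD finger protein that binds methylated histone H3, with siRNA in cells kept with or without TGFβ. The 4 groups of 2 libraries were siControl, siPHF13, siControl + TGFβ and siPHF13 + TGFβ, where siControl was a non-targeting siRNA and TGFβ was given at 10 ng/ml for 48 h. All libraries came from transfected cells of 1 line, and there was no untransfected library and no group given interferon. The siPHF13 and siControl groups differ in siRNA sequence as well as in PHF13 level, and effects of these cannot be told apart here. Changes after PHF13 depletion are thus differences between these siRNA groups. The labels do not say whether the libraries of a group came from separate cultures, so the p-values measure the spread between these libraries, which may be technical.

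Type I and type III interferons signal through receptor-bound JAK kinases to transcription factors that bind the interferon-stimulated response element (ISRE) in the promoters of effector genes. Interferon gamma acts on a different, palindromic element (GAS) and also through the factor IRF1. Tumor cells often keep part of this program active without added interferon. The 51 genes were grouped by family and by 3 induction classes that rest on general knowledge of these genes but were assigned with earlier results of these data known. The type I class (23 genes) is low without interferon and strongly induced by type I and III interferons. The shared class (15 genes) is also strongly induced by interferon gamma. The basal class (13 genes) is expressed in most cells and modestly induced.

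RefSeq promoter sequences, from 250 bases before to 50 bases after the start on build GRCh38.p14, were matched by symbol for 41 of the 51 genes. The ISRE core, searched as GAAA, any 2 bases and GAAA again, or on the other strand as TTTC, any 2 bases and TTTC, was present in 28 of these 41 genes (68.3%), counting a gene when any of its promoters held it, against 4.38% of all 27305 genes and 3.57% of all 35116 promoters in the RefSeq table. By class it was present in 12 of 17 type I genes, 9 of 13 shared genes and 7 of 11 basal genes. The GAS motif TTCNNNGAA was present in 11 of the 41 genes (26.8%), against 9.38% of all genes and 7.66% of all promoters. Both strands were searched and overlapping matches were counted separately. The following windows show the ISRE core in capitals, 5′ to 3′ on the strand of the gene, for 4 genes whose counts fell after PHF13 depletion with and without TGFβ (*GBP4*, *PARP14*, *DDX60*, *MX1*), for 2 genes whose counts fell with TGFβ in control cells (*IFIT1*, *IFIT3*), for the divergent pair *PARP9* and *DTX3L*, and for 3 genes that were called in no comparison (*IFI6*, *IFITM1*, *LGALS3BP*).
GBP4: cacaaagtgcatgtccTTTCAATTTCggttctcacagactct
PARP14: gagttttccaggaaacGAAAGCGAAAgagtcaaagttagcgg
DDX60: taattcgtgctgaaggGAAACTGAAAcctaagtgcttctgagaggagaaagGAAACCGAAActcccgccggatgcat
MX1: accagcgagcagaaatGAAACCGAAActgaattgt
IFIT1: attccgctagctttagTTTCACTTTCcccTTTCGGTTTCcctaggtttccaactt
IFIT3: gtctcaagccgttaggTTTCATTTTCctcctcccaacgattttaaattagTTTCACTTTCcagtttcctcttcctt
PARP9: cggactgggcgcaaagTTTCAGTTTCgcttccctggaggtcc
DTX3L: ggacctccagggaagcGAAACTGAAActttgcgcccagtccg
IFI6: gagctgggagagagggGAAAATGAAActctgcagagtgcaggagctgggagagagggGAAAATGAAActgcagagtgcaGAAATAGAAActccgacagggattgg
IFITM1: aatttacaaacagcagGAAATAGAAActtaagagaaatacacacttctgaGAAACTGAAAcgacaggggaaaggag
LGALS3BP: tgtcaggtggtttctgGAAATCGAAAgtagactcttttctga
On GRCh38.p14 the windows were chr1:89198921-89198962 (minus strand) for *GBP4*, chr3:122680794-122680835 (plus strand) for *PARP14*, chr4:168318780-168318856 (minus strand) for *DDX60*, chr21:41420553-41420587 (plus strand) for *MX1*, chr10:89392491-89392545 (plus strand) for *IFIT1*, chr10:89327825-89327900 (plus strand) for *IFIT3*, chr3:122564316-122564357 (minus strand) for *PARP9*, chr3:122564316-122564357 (plus strand) for *DTX3L*, chr1:27672260-27672364 (minus strand) for *IFI6*, chr11:313984-314059 (plus strand) for *IFITM1* and chr17:78979956-78979997 (minus strand) for *LGALS3BP*. Gene positions given with the values are on GRCh37, from GENCODE.
The core was thus found both in genes that were called and in genes that were not. A match describes these letters only and was not tested for binding.

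The libraries held 39196214 to 46700806 reads on genes, and the 51 effectors together took 0.318 to 0.436% of the normalized counts. All 6 epithelial markers looked up were in the table. Of markers of other cells, 2 of 6 leukocyte genes, 1 of 5 fibroblast genes and 1 of 4 endothelial genes were in the table, and *PTPRC*, *COL1A2*, *PECAM1* and 8 others were not. The leukocyte-list gene *CD68* had 7360 and 7236 normalized counts in siControl, 11903 and 13047 in siPHF13, 7666 and 6137 in siControl + TGFβ and 13400 and 10524 in siPHF13 + TGFβ. The fibroblast-list gene *COL1A1* had 3345 and 3433, 1922 and 1887, 16414 and 15334, and 4909 and 4691 in the same order. *CD14* and *KDR*, the other 2 found, had mean counts of 48.7 and 18.9, while the epithelial genes ran from 199 for *EPCAM* to 93664 for *KRT8*. *CD68* was thus higher and *COL1A1* lower in all siPHF13 libraries than in their controls, and any part of other cells in the results was not tested. *PHF13* had 1804 and 1662 normalized counts in siControl and 524 and 558 in siPHF13, and 1586 and 1709 in siControl + TGFβ against 513 and 529 in siPHF13 + TGFβ. It therefore stood at 31.2% and 31.6% of its control mean, with log2 fold changes of -1.68 (SE 0.09, adjusted p = 1.52e-08) and -1.66 (SE 0.09, adjusted p = 1.3e-08). Deposited counts were compared with limma on log2(normalized count + 1), which understates the change of low genes. A gene was called, and is said to have fallen or risen, at a Benjamini-Hochberg adjusted p below 0.05 over all 13307 genes and an absolute log2 fold change above 0.58. edgeR and DESeq2, given beside limma, left out siPHF13 replicate 1 and so held 1 siPHF13 library without TGFβ. Where they differ from limma, the tool and the library left out cannot be told apart. Counts at an unadjusted p have no all-gene share beside them, since it was not computed.

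Effector levels in siControl cells differed widely, and the classes are themselves described in part by basal expression. Per kilobase of the longest transcript, the median siControl mean was 125 normalized counts in the type I class, 454 in the shared class and 1036 in the basal class. On this scale *IFITM3*, a membrane protein that blocks virus entry, was highest at 17502, followed by *LGALS3BP* at 6509 and the RNA editing enzyme gene *ADAR* at 2470.2. The lowest were *TRIM22* at 7.91 and *HERC6* at 10.4. Within the type I class the range ran from 10.4 for *HERC6* to 1432 for *ISG15*, so some members of that class were well expressed in these cells without added interferon. Some *IFITM1* reads may be ambiguous, since 34.0% of its 100-base stretches also occur in other genes.

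Counts of many effectors were lower after PHF13 depletion without TGFβ, and none was called higher. In siPHF13 against siControl, 26 of 51 effectors fell and 0 rose, against 10.4% of all genes called lower and 7.95% called higher. The median log2 fold change of the 51 genes was -0.59, against -0.00 for all genes, and 45 of the 51 values were negative against 50.1% of all genes. Both siPHF13 libraries lay below both siControl libraries for 40 effectors, against 38.8% of all genes. Of the 51, 1 was higher at an unadjusted limma p below 0.05 (*RNF213*), and edgeR and DESeq2 likewise called 0 higher, with 22 and 23 called lower. Of the 26, *HERC6*, *IFI44* and *TRIM22* were not called by either count model and *GBP1* was not called by edgeR. The count models held only siPHF13 replicate 2 here, which was above replicate 1 for 44 of the 51 effectors. Since these are bulk libraries, fewer cells expressing a gene and less RNA per cell cannot be told apart.

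Most of the genes that fell belonged to the type I class. In the type I class 17 of 23 genes fell, with a median log2 fold change of -1.05. In the shared class 8 of 15 fell, with a median of -0.59. In the basal class 1 of 13 (7.69%) fell, *PARP12*, with a median of -0.32. Of all genes 10.4% were called lower, so the basal share was near that of all genes. The classes were not compared by a test. By adjusted p alone, without the fold threshold, 19 type I, 10 shared and 8 basal genes were lower, against 24.3% of all genes.

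**Figure D1:**
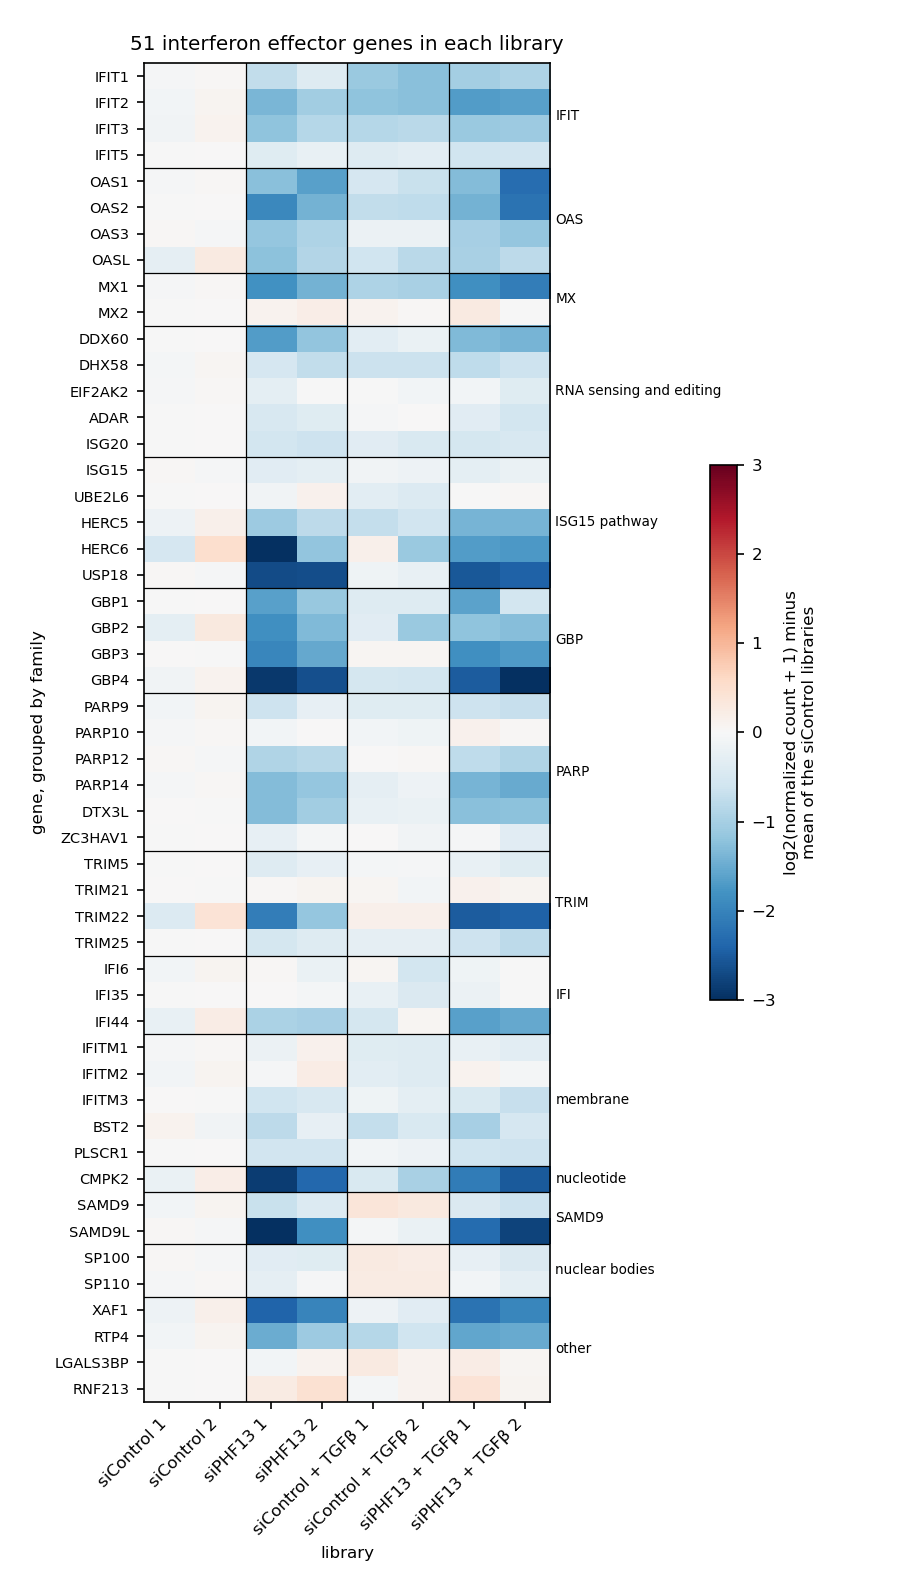
Each row is an effector gene, grouped by family, and each column a library, with the color giving log2(normalized count + 1) minus the mean of the siControl libraries (blue lower, red higher; colors stop at 3 in either direction). The 4 siPHF13 columns are blue in rows such as *USP18*, *GBP4*, *CMPK2* and *SAMD9L*, while the rows of *MX2*, *IFI6* and *LGALS3BP* stay near white.

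Some effectors were also lower after PHF13 depletion in the presence of TGFβ, and none was called higher. In siPHF13 + TGFβ against siControl + TGFβ, 20 of 51 effectors fell and 0 rose, against 11.7% of all genes called lower and 8.81% called higher. At an unadjusted limma p below 0.05, 5 were higher, and edgeR and DESeq2 each called 0 higher and 19 lower. The median log2 fold change was -0.44, against 0.00 for all genes. By class, 12 of 23 type I genes (median -0.81), 5 of 15 shared genes (median -0.50) and 3 of 13 basal genes (median -0.24) fell. The basal genes were *PARP12*, *SAMD9* and *SP100*.

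The comparisons with and without TGFβ use different libraries. Of the genes that fell, 18 fell in both, which is 69.2% of the 26 without TGFβ and 90.0% of the 20 with TGFβ. The 8 called only without TGFβ were *DHX58*, *GBP1*, *GBP2*, *HERC6*, *IFIT2*, *IFIT3*, *ISG20* and *OASL*, and the 2 called only with TGFβ were *SAMD9* and *SP100*. Being called in 1 comparison does not show a difference between them, and the test of that difference is given with the response to TGFβ. Over the 51 genes the log2 fold changes of both comparisons had a Pearson r of 0.878, which is a correlation across genes that share libraries within each comparison. Neither the overlap nor the correlation was computed over all genes, so neither has a background beside it.

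**Figure D2:**
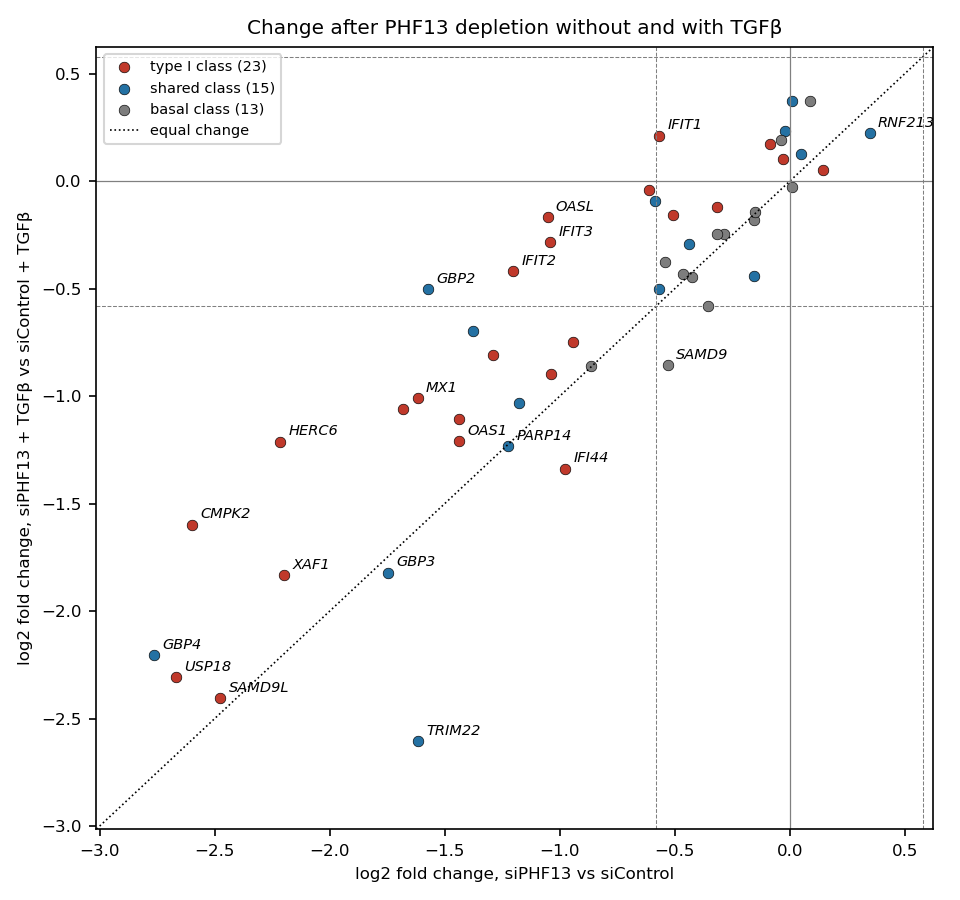
Each point is an effector gene, with its log2 fold change after PHF13 depletion without TGFβ on the x axis and with TGFβ on the y axis, colored by induction class (dashed lines mark 0.58 in either direction and the dotted line equal change). *GBP4*, *USP18* and *SAMD9L* lie below -2 on both axes, *IFIT2*, *IFIT3* and *OASL* lie above the line of equal change, and every basal gene lies closer to 0 than *PARP14* on both axes.

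The GBP family, interferon-inducible GTPases that attack the membranes around intracellular pathogens, held the largest change without TGFβ. *GBP4* (chr1:89646827-89664625) had 1325 and 1541 normalized counts in siControl and 191 and 229.8 in siPHF13. With TGFβ it had 994 and 976 in siControl and 254 and 179 in siPHF13. Every siPHF13 library was thus far below every siControl library. The log2 fold changes were -2.76 (SE 0.16, adjusted p = 1.93e-08) without TGFβ and -2.20 (SE 0.16, adjusted p = 1.22e-07) with it, leaving 14.7% and 22.0% of the control means. *GBP3* (chr1:89472362-89488577) had 1683 and 1657 in siControl and 429 and 575 in siPHF13, and 1727 and 1734 against 469 and 511 with TGFβ. Its groups did not overlap, and the log2 fold changes were -1.75 (SE 0.12, adjusted p = 1.05e-07) and -1.82 (SE 0.12, adjusted p = 6.2e-08). *GBP1* and *GBP2* fell without TGFβ only, with log2 fold changes of -1.38 (SE 0.34, adjusted p = 0.00434) and -1.57 (SE 0.29, adjusted p = 0.000531), and gave -0.70 (SE 0.34, adjusted p = 0.105) and -0.50 (SE 0.29, adjusted p = 0.164) with TGFβ. The *GBP1* call without TGFβ was made by limma and DESeq2 but not by edgeR. Leaving out siPHF13 + TGFβ replicate 2 made the latter *GBP1* value -1.22 (adjusted p = 0.0113), and leaving out siControl + TGFβ replicate 2 made that of *GBP2* -0.88 (adjusted p = 0.0405). The *GBP1* and *GBP3* promoters carry the same core, TTTCAGTTTC, and the 42-base windows around it differ at 10 bases.

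The ISG15 pathway attaches the ubiquitin-like ISG15 to proteins through the conjugating enzyme UBE2L6 and the ligase HERC5, and USP18 removes it and also restrains the type I receptor. *USP18* (chr22:18632885-18660164) had 357 and 335 normalized counts in siControl and 52.7 and 54.3 in siPHF13. With TGFβ it had 317 and 294 against 58.3 and 63.5. The replicates lay close together and the groups were far apart, with log2 fold changes of -2.67 (SE 0.19, adjusted p = 1.13e-07) and -2.31 (SE 0.19, adjusted p = 3.58e-07). *HERC5* (chr4:89378270-89427314) had 281 and 347 in siControl and 146 and 179.5 in siPHF13, and 189.7 and 211 against 119 and 118 with TGFβ. It fell to 51.9% and 59.2% of the control means, with log2 fold changes of -0.94 (SE 0.18, adjusted p = 0.000767) and -0.75 (SE 0.18, adjusted p = 0.00351). *HERC6*, a low gene, fell without TGFβ with -2.21 (SE 0.71, adjusted p = 0.0193), but not when siControl replicate 2 (-1.70, adjusted p = 0.174) or siPHF13 replicate 1 (-1.18, adjusted p = 0.202) was left out. *ISG15* itself stood at 80.2% of control with -0.32 (SE 0.09, adjusted p = 0.00942), below the fold threshold, and *UBE2L6* gave 0.01 (SE 0.10, adjusted p = 0.93). With TGFβ, *UBE2L6* was higher after depletion at 0.37 (SE 0.10, adjusted p = 0.00575), also below the fold threshold.

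The OAS family makes 2′,5′-linked oligoadenylates that activate RNase L, except for OASL, which lacks that activity. All 4 members fell without TGFβ. *OAS1* (chr12:113343661-113371024) had 235 and 249.6 normalized counts in siControl, 101 and 77.9 in siPHF13, 170.3 and 152 in siControl + TGFβ and 97.2 and 49.1 in siPHF13 + TGFβ. *OAS2* (chr12:113416200-113449528) had 325 and 331 in siControl, 84.5 and 122 in siPHF13, 196 and 193 in siControl + TGFβ and 123 and 70.3 in siPHF13 + TGFβ. *OAS3* (chr12:113375856-113414265) had 7965 and 7634 in siControl, 3509 and 4103 in siPHF13, 6888 and 6856 in siControl + TGFβ and 3881 and 3503 in siPHF13 + TGFβ. In all 3 genes the siPHF13 libraries were below the siControl libraries in each condition. The log2 fold changes without and with TGFβ were -1.44 (SE 0.28, adjusted p = 0.0008) and -1.21 (SE 0.28, adjusted p = 0.00251) for *OAS1*. They were -1.68 (SE 0.25, adjusted p = 0.000103) and -1.06 (SE 0.25, adjusted p = 0.00313) for *OAS2*, and -1.04 (SE 0.08, adjusted p = 2.2e-07) and -0.90 (SE 0.08, adjusted p = 7.16e-07) for *OAS3*. *OASL* (chr12:121455566-121477049) had 274 and 393 in siControl and 139 and 179 in siPHF13 but 216 and 187 against 167 and 192 with TGFβ, where the groups overlapped. Its log2 fold changes were -1.05 (SE 0.20, adjusted p = 0.000733) and -0.17 (SE 0.20, adjusted p = 0.524).

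The MX genes encode dynamin-like GTPases that trap viral nucleocapsids, and 1 of the 2 fell. *MX1* (chr21:42791947-42841998) had 273 and 285 normalized counts in siControl and 78.6 and 104 in siPHF13, and 146 and 142 against 76.6 and 65.4 with TGFβ. It fell to 32.7% and 49.4% of the control means, with log2 fold changes of -1.62 (SE 0.21, adjusted p = 2.77e-05) and -1.01 (SE 0.21, adjusted p = 0.00116). *MX2* was called in no comparison, with group means from 99.1 to 111% of each reference and 0.15 (SE 0.09, adjusted p = 0.22) without TGFβ.

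**Figure D3:**
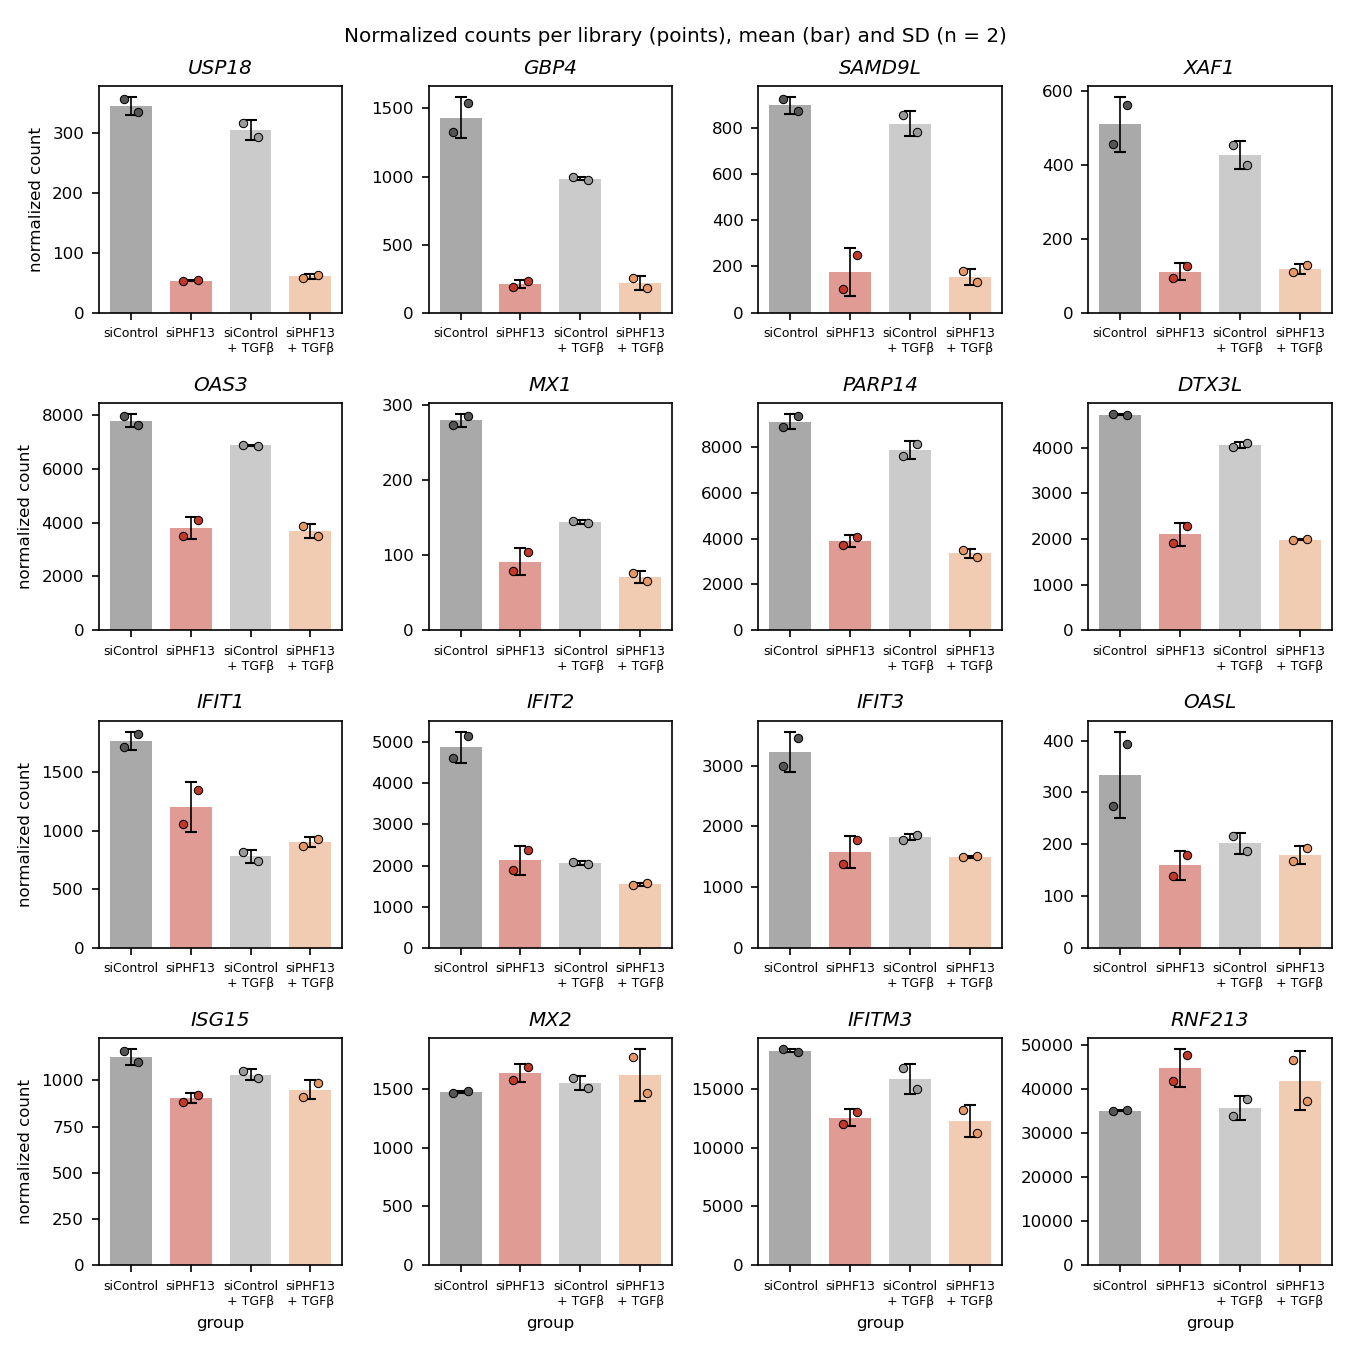
Normalized counts of 16 effectors in each group are shown as points for libraries, bars for group means and lines for the SD (n = 2), with a linear y axis from 0. *USP18*, *GBP4*, *SAMD9L* and *XAF1* are low in both siPHF13 groups, *IFIT1*, *IFIT2* and *IFIT3* are already low in siControl + TGFβ, and *MX2* is level across the groups.

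The SAMD9 pair encodes related cytoplasmic proteins that restrict poxviruses. *SAMD9L* (chr7:92759369-92777698) had 923 and 871 normalized counts in siControl and 103 and 249 in siPHF13, and 856 and 779.6 against 180.3 and 131 with TGFβ. The siPHF13 replicates differed more than those of other groups, but all were well below control, with log2 fold changes of -2.48 (SE 0.29, adjusted p = 1.04e-05) and -2.40 (SE 0.29, adjusted p = 1.15e-05). *SAMD9* gave -0.53 (SE 0.10, adjusted p = 0.000757) without TGFβ, short of the fold threshold, and fell with TGFβ at -0.85 (SE 0.10, adjusted p = 1.25e-05). It passed the fold threshold without TGFβ when siControl replicate 1 (-0.61) or siPHF13 replicate 2 (-0.66) was left out.

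The PARP group comprises ADP-ribosyltransferases and partners. *PARP14* (chr3:122399686-122449687) had 8896 and 9351 normalized counts in siControl and 3718 and 4091 in siPHF13, and 7616 and 8147 against 3491 and 3219 with TGFβ. *DTX3L* (chr3:122283185-122294050), a ubiquitin ligase that pairs with PARP9, had 4730.0 and 4710.5 in siControl and 1919 and 2277 in siPHF13, and 4013 and 4097 against 1971 and 1996 with TGFβ. *PARP12* (chr7:139723549-139762751), whose product localizes to the Golgi and to stress granules, had 2559 and 2417 in siControl and 1333 and 1404 in siPHF13, and 2511 and 2569 against 1467 and 1331 with TGFβ. These were well expressed genes with close replicates and no overlap between groups. *PARP14* changed by -1.23 (SE 0.07, adjusted p = 2.01e-08) and -1.23 (SE 0.07, adjusted p = 1.65e-08), *DTX3L* by -1.17 (SE 0.08, adjusted p = 8.41e-08) and -1.03 (SE 0.08, adjusted p = 2.27e-07), and *PARP12* by -0.86 (SE 0.08, adjusted p = 1.16e-06) and -0.86 (SE 0.08, adjusted p = 1.04e-06). *PARP9* and *DTX3L* start back to back, and their printed windows are the same 42 genome bases read on opposite strands. Of the 2 promoters matched for *PARP9*, only 1 held the core. *PARP9* gave -0.44 (SE 0.11, adjusted p = 0.00547) without TGFβ and -0.29 (SE 0.11, adjusted p = 0.0431) with it. Both values were short of the fold threshold that *DTX3L* passed. The difference between the neighbors was not tested, and without siPHF13 replicate 2 *PARP9* was called at -0.63 (adjusted p = 0.000834). *PARP10* gave -0.04 (SE 0.08, adjusted p = 0.711) and *ZC3HAV1*, which encodes the zinc finger antiviral protein, -0.15 (SE 0.09, adjusted p = 0.182).

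Among genes for RNA sensing and editing, *DDX60* (chr4:169137442-169240034), a helicase, had 1088 and 1116 normalized counts in siControl and 343 and 481 in siPHF13. With TGFβ it had 890.5 and 961 against 439 and 419.6. The groups did not overlap, with log2 fold changes of -1.44 (SE 0.14, adjusted p = 1.82e-06) and -1.11 (SE 0.14, adjusted p = 1.73e-05). *DHX58* (chr17:40253422-40264732), which encodes the RIG-I-like receptor LGP2, had 367 and 396 in siControl and 271 and 229.8 in siPHF13, but 245 and 242 against 226 and 247 with TGFβ, where the groups overlapped. Its log2 fold changes were -0.61 (SE 0.15, adjusted p = 0.00367) and -0.04 (SE 0.15, adjusted p = 0.836), and the former no longer passed the fold threshold without siControl replicate 2 (-0.56) or siPHF13 replicate 2 (-0.49). *ISG20*, an exonuclease, fell without TGFβ at -0.59 (SE 0.10, adjusted p = 0.000241), close to the threshold, and without siPHF13 replicate 2 it was at -0.54. *ADAR* gave -0.43 (SE 0.07, adjusted p = 0.00021), and *EIF2AK2*, which encodes the kinase PKR, gave -0.15 (SE 0.10, adjusted p = 0.218).

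Of 4 TRIM ubiquitin ligases, *TRIM22* fell in both conditions. *TRIM22* (chr11:5710840-5758319) was the lowest of the 51 per kilobase and had 30.4 and 55.0 normalized counts in siControl, 8.95 and 17.8 in siPHF13, 45.3 and 45.3 in siControl + TGFβ and 6.48 and 6.74 in siPHF13 + TGFβ. The libraries did not overlap, with log2 fold changes of -1.62 (SE 0.51, adjusted p = 0.0181) and -2.60 (SE 0.51, adjusted p = 0.000784). The former was lost without siControl replicate 2 (-1.20, adjusted p = 0.191) or siPHF13 replicate 1 (-1.16, adjusted p = 0.132). *TRIM25*, a ligase that acts on RIG-I, gave -0.47 (SE 0.07, adjusted p = 9.26e-05) and -0.43 (SE 0.07, adjusted p = 0.000147) and *TRIM5* gave -0.32 (SE 0.07, adjusted p = 0.00267) and -0.24 (SE 0.07, adjusted p = 0.0125), all short of the fold threshold. *TRIM21* gave 0.05 (SE 0.07, adjusted p = 0.594) and 0.12 (SE 0.07, adjusted p = 0.16).

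Several other effectors fell in both conditions. *CMPK2* (chr2:6980701-7006766), a mitochondrial nucleotide kinase gene, had 42.7 and 56.8 normalized counts in siControl, 5.97 and 8.88 in siPHF13, 35.6 and 24.7 in siControl + TGFβ and 10.8 and 7.70 in siPHF13 + TGFβ. Its log2 fold changes were -2.60 (SE 0.51, adjusted p = 0.000883) and -1.60 (SE 0.51, adjusted p = 0.0182), and the latter was lost without siControl + TGFβ replicate 1 (-1.34, adjusted p = 0.115) or siPHF13 + TGFβ replicate 2 (-1.38, adjusted p = 0.0829). *XAF1* (chr17:6658766-6678966), a pro-apoptotic factor, had 457 and 562 in siControl, 94.5 and 127 in siPHF13, 453 and 399 in siControl + TGFβ and 109 and 129 in siPHF13 + TGFβ. It fell by -2.20 (SE 0.19, adjusted p = 6.19e-07) and -1.83 (SE 0.19, adjusted p = 2.8e-06) as log2 fold changes. *RTP4* (chr3:187086173-187089864), a chaperone of membrane receptors, had 166 and 188 in siControl, 62.7 and 81.9 in siPHF13, 97.0 and 117 in siControl + TGFβ and 59.4 and 61.6 in siPHF13 + TGFβ. Its log2 fold changes were -1.29 (SE 0.24, adjusted p = 0.000513) and -0.81 (SE 0.24, adjusted p = 0.0112), with the latter lost without siControl + TGFβ replicate 2 (-0.67, adjusted p = 0.0828). *IFI44* (chr1:79115481-79129763) had 92.0 and 127 in siControl, 55.7 and 53.3 in siPHF13, 74.4 and 112 in siControl + TGFβ and 34.5 and 36.6 in siPHF13 + TGFβ, with log2 fold changes of -0.98 (SE 0.29, adjusted p = 0.0139) and -1.34 (SE 0.29, adjusted p = 0.00178). Without siControl replicate 2 (-0.75, adjusted p = 0.148) or siPHF13 replicate 2 (-0.94, adjusted p = 0.0589) the former was not called.

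The remaining families held few calls. Of the 5 membrane proteins, 0 fell by limma in either depletion comparison, with 2 lower and 0 higher at an unadjusted p below 0.05 without TGFβ, 2 lower and 1 higher with TGFβ, and 0 called by edgeR or DESeq2. *IFITM3* gave -0.54 (SE 0.08, adjusted p = 8.61e-05) and *PLSCR1*, a phospholipid scramblase, gave -0.57 (SE 0.08, adjusted p = 6.05e-05), both just short of the fold threshold. *IFITM3* passed it without siPHF13 replicate 2 (-0.60) and *PLSCR1* without siControl replicate 1 (-0.59). *IFITM1* gave -0.03 (SE 0.11, adjusted p = 0.839), *IFITM2* 0.09 (SE 0.10, adjusted p = 0.488) and *BST2*, which tethers budding virions, -0.51 (SE 0.29, adjusted p = 0.171). The PML nuclear body gene *SP100* gave -0.36 (SE 0.07, adjusted p = 0.00145) without TGFβ and fell at -0.58 (SE 0.07, adjusted p = 2.36e-05) with TGFβ. The *SP100* value lay at the threshold and was -0.55 without siControl + TGFβ replicate 1 and -0.49 without siPHF13 + TGFβ replicate 2. *SP110* gave -0.15 (SE 0.12, adjusted p = 0.331) and -0.44 (SE 0.12, adjusted p = 0.00872). *IFI6* gave -0.09 (SE 0.18, adjusted p = 0.73), *IFI35* -0.02 (SE 0.09, adjusted p = 0.887) and *LGALS3BP* 0.01 (SE 0.08, adjusted p = 0.936).

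*RNF213* (chr17:78234651-78372594), a very large ubiquitin ligase gene that restricts intracellular bacteria and viruses, had the highest mean count of the 51. It had 34939 and 35229 normalized counts in siControl and 41681 and 47784 in siPHF13, and 33735 and 37647 against 46572 and 37209 with TGFβ. The groups were apart without TGFβ and overlapped with it. Its log2 fold changes were 0.35 (SE 0.10, adjusted p = 0.00876) and 0.22 (SE 0.10, adjusted p = 0.0664), below the fold threshold in both. It was 1 of 6 effectors with a positive value without TGFβ, the others being *MX2*, *TRIM21*, *IFITM2*, *UBE2L6* and *LGALS3BP*, and of 10 with TGFβ. With TGFβ, *IFITM2* at 0.37 (SE 0.10, adjusted p = 0.00634) and *UBE2L6* had the largest positive values of the 51.

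TGFβ alone lowered a smaller set of effectors, all of the type I class. In siControl + TGFβ against siControl, 7 of 51 fell and 0 rose, against 1.52% of all genes called lower and 3.27% called higher. They were *IFIT1*, *IFIT2*, *IFIT3*, *OASL*, *MX1*, *HERC5* and *DHX58*. The median log2 fold change was -0.25 for the 51 genes and -0.01 for all genes, and by class it was -0.59 in the type I, -0.22 in the shared and -0.05 in the basal class. In the shared and basal classes limma called 0 of 15 and 0 of 13, with 8 and 4 lower at an unadjusted p below 0.05, and edgeR and DESeq2 called 0 as well. Of all 51, 3 were higher at an unadjusted p below 0.05, and edgeR and DESeq2 called 0 higher and 9 and 8 lower. By limma adjusted p alone, 2 basal genes were higher, *SAMD9* and *SP100*, at 125.4% and 118.4% of the siControl mean. In siPHF13 + TGFβ they stood at 100.2% and 101.5% of the siPHF13 mean. The 1.52% and 3.27% of all genes apply to the calls and not to the counts at an unadjusted p. The comparison of siControl + TGFβ with siControl shares its siControl libraries with that of siPHF13 against siControl. The number of calls was 3 without siControl replicate 2, and 11 when the spread was taken from the compared libraries alone.

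The IFIT family, whose member IFIT1 binds foreign RNA lacking host cap methylation and blocks its translation, led this response. *IFIT1* (chr10:91152303-91166244) had 1714 and 1825 normalized counts in siControl and 819 and 741 in siControl + TGFβ. *IFIT2* (chr10:91043451-91069028) had 4612 and 5152 against 2098 and 2034, and *IFIT3* (chr10:91087064-91137230) had 2995 and 3464 against 1782 and 1853. All TGFβ-treated control libraries were below the untreated ones. The log2 fold changes were -1.18 (SE 0.11, adjusted p = 9.36e-06) for *IFIT1*, -1.24 (SE 0.10, adjusted p = 1.56e-06) for *IFIT2* and -0.83 (SE 0.11, adjusted p = 0.000118) for *IFIT3*, and these 3 calls held with any single library left out. *IFIT5*, of the basal class, gave -0.35 (SE 0.08, adjusted p = 0.0111), short of the fold threshold. *MX1* fell at -0.95 (SE 0.21, adjusted p = 0.00642), *OASL* at -0.71 (SE 0.20, adjusted p = 0.0289), *DHX58* at -0.65 (SE 0.15, adjusted p = 0.00814) and *HERC5* at -0.64 (SE 0.18, adjusted p = 0.028). Each of these 4 lost its call without siControl replicate 2, with adjusted p of 0.0746 for *MX1*, 0.336 for *OASL*, 0.097 for *DHX58* and 0.276 for *HERC5*. *MX1* and *HERC5* were also not called without siControl replicate 1 (adjusted p = 0.0563 and 0.0583). *OASL* and *HERC5* were not called without either siControl + TGFβ library, with adjusted p from 0.065 to 0.167. *GBP3* and *PARP12*, which fell after PHF13 depletion, gave 0.05 (SE 0.12, adjusted p = 0.834) and 0.03 (SE 0.08, adjusted p = 0.853) with TGFβ.

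After PHF13 depletion, no effector passed both thresholds in the response to TGFβ. In siPHF13 + TGFβ against siPHF13, limma called 0 of 51, against 0.218% of all genes called lower and 1.13% called higher. At an unadjusted p below 0.05, 6 were lower and 0 higher, edgeR called *IFIT2* lower and DESeq2 called *IFIT1* and *IFIT2* lower. Both count models again held only siPHF13 replicate 2 of the siPHF13 group. The median log2 fold change by limma was -0.04, against -0.01 for all genes. *IFIT1* had 1054 and 1352 normalized counts in siPHF13 and 873 and 933 in siPHF13 + TGFβ, with a log2 fold change of -0.40 (SE 0.11, adjusted p = 0.0805). *IFIT2* had 1881 and 2381 against 1518 and 1572 with -0.45 (SE 0.10, adjusted p = 0.021), which passed the adjusted p but not the fold threshold. *IFIT3* had 1386 and 1769 against 1487 and 1503, which overlapped, with -0.07 (SE 0.11, adjusted p = 0.855). Without siPHF13 replicate 1, *IFIT1* (-0.58, adjusted p = 0.0221) and *IFIT2* (-0.62, adjusted p = 0.00452) were called.

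**Figure D4:**
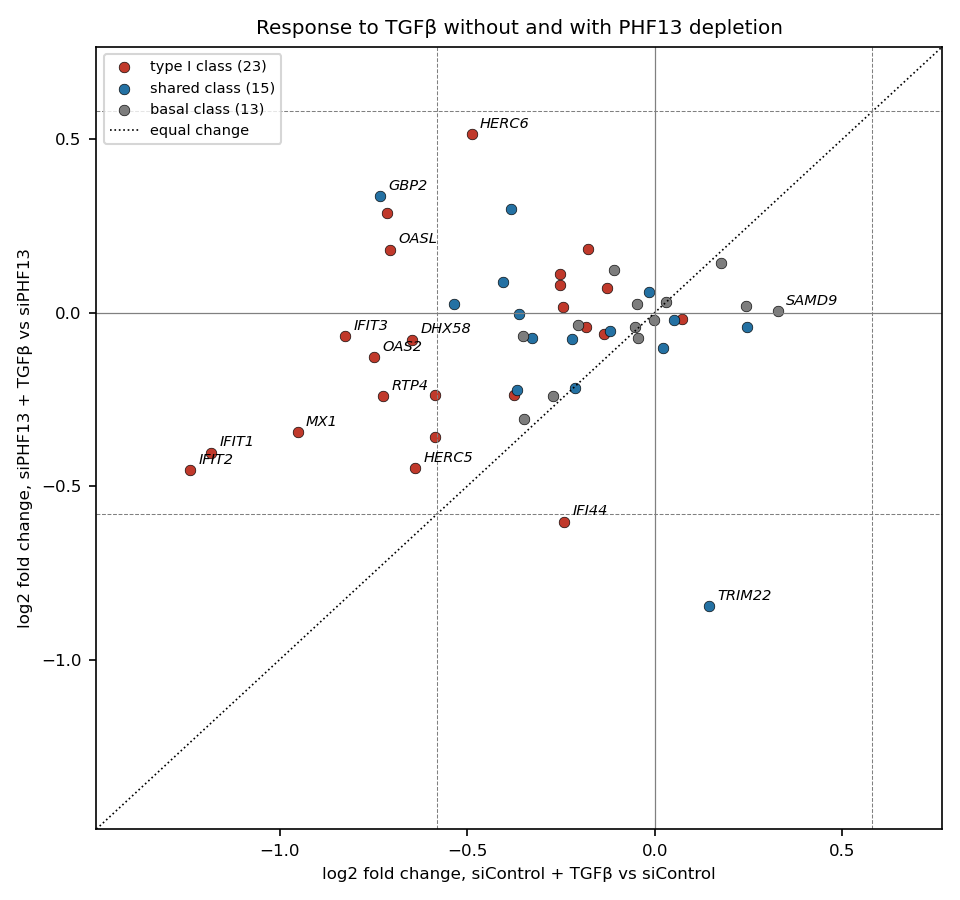
Each point is an effector gene, with its log2 fold change with TGFβ in siControl cells on the x axis and in siPHF13 cells on the y axis, colored by induction class (dashed lines mark 0.58 in either direction and the dotted line equal change). *IFIT1*, *IFIT2* and *MX1* lie far to the left of 0 on the x axis and nearer to 0 on the y axis, and *TRIM22* lies lowest on the y axis.

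The difference between the responses to TGFβ in siPHF13 and siControl cells was tested as an interaction. It was positive for 39 of 51 effectors, against 48.3% of all genes, with a median of 0.19 against -0.01. Limma called *IFIT2* at 0.78 (SE 0.14, adjusted p = 0.0255) and *IFIT3* at 0.76 (SE 0.15, adjusted p = 0.046), against 0.0601% of all genes called higher and 0.248% called lower. *IFIT1* gave a value of the same size, 0.78 (SE 0.16, adjusted p = 0.0568), that did not pass. DESeq2 called 2 and edgeR 0. The same interaction is the difference between the depletion effects with and without TGFβ, so that *IFIT2* fell to 43.7% of control in siPHF13 cells without TGFβ and stood at 74.8% with it. The *IFIT2* and *IFIT3* calls were lost without siControl replicate 1 (adjusted p = 0.0922 and 0.0982), siControl replicate 2 (0.272 and 0.393), siPHF13 replicate 1 (0.0918 and 0.174), siControl + TGFβ replicate 1 (0.115 and 0.207) or siControl + TGFβ replicate 2 (0.138 and 0.151). *IFIT1* was called without siPHF13 replicate 2 (0.96, adjusted p = 0.0244) or siPHF13 + TGFβ replicate 1 (0.83, adjusted p = 0.0163). With all 8 libraries no other effector was called by limma, so a difference between the depletion effects with and without TGFβ was not shown for the other 49.

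Across all 4 groups, the mean count was highest in siControl for 38 of 51 effectors and lowest in siPHF13 + TGFβ for 25 and in siPHF13 for 15. The matching shares of all genes were not computed, so these counts have no background beside them. The replicates of the siPHF13 group were not level for these genes. In 44 of 51 effectors siPHF13 replicate 1 was below replicate 2, against 51.3% of all genes, with a median log2 ratio of -0.24 over the effectors. In siControl 40 of 51 were lower in replicate 1, with a median of -0.05, and in the TGFβ groups 17 and 20 were. Without siPHF13 replicate 1, 24 effectors fell against siControl, and without replicate 2, 27 fell.

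By promoter sequence, 14 of the 28 genes with an ISRE core fell in siPHF13 against siControl (median log2 fold change -0.58), and 5 of the 13 without one fell (median -0.43), against 10.4% of all genes. With TGFβ, 12 of the 28 and 5 of the 13 fell, against 11.7% of all genes. With TGFβ in siControl cells, limma called 4 of the 28 lower and 0 of the 13, against 1.52% of all genes. At an unadjusted p below 0.05, 14 of the 28 and 3 of the 13 were lower there, and edgeR and DESeq2 also called 0 of the 13. The 1.52% is a share of calls and no background for the counts at an unadjusted p, whose all-gene share was not computed. Genes with and without the core were not compared by a test. *GBP4*, *PARP14* and *DDX60* above carry 1 or 2 cores and fell, while *IFI6* with 3 and *IFITM1* with 2 gave -0.09 (SE 0.18, adjusted p = 0.73) and -0.03 (SE 0.11, adjusted p = 0.839). *USP18*, *OAS2*, *OASL*, *IFIT2*, *TRIM22* and *DHX58* had no matched promoter, and *SAMD9L*, *XAF1* and *CMPK2*, which fell strongly, held no core in the windows searched.

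Ligands, receptors, kinases, factors, sensors and inhibitors of interferon signaling were looked up as a separate list. Of its 38 genes, 31 were in the table, and 10 fell and 0 rose in siPHF13 against siControl, with 9 lower and 0 higher with TGFβ. The shares of all genes called lower were 10.4% and 11.7%, and those called higher 7.95% and 8.81%. The median log2 fold changes of the 31 were -0.32 and -0.16, against -0.00 and 0.00 for all genes. At an unadjusted limma p below 0.05, 0 and 2 were higher, and edgeR and DESeq2 called 8 lower without and 9 lower with TGFβ and 0 higher. *IFNE* and *IFNAR1* were not called by either count model without TGFβ. With TGFβ in siControl cells limma, edgeR and DESeq2 called 0 of the 31, and at an unadjusted limma p 6 were lower and 3 higher. Of the RNA sensors, *TLR3*, which detects double-stranded RNA in endosomes, had 74.0 and 96.4 normalized counts in siControl and 3.98 and 10.9 in siPHF13, and 78.7 and 75.1 against 7.56 and 7.70 with TGFβ. Its log2 fold changes were -3.48 (SE 0.48, adjusted p = 5.04e-05) and -3.17 (SE 0.48, adjusted p = 9.72e-05), the largest of the pathway genes. *IFIH1*, which encodes the cytoplasmic sensor MDA5, had 2689 and 2658 in siControl and 601 and 788 in siPHF13, with -1.96 (SE 0.11, adjusted p = 1.52e-08), and *DDX58*, which encodes RIG-I, had 5598 and 6424 in siControl and 2527 and 2736 in siPHF13, with -1.19 (SE 0.08, adjusted p = 1.19e-07). All siPHF13 libraries were below the controls for these sensors. *IKBKE*, a kinase that activates interferon regulatory factors, changed by -1.28 (SE 0.12, adjusted p = 1.77e-06) and -1.27 (SE 0.12, adjusted p = 1.69e-06). The other 4 of the 8 sensor genes were not called by limma in either comparison. *TMEM173*, which encodes the adaptor STING, gave -0.45 (SE 0.10, adjusted p = 0.00151) and the kinase gene *TBK1* -0.12 (SE 0.07, adjusted p = 0.168) without TGFβ. *MAVS*, an adaptor of the RNA sensors, gave 0.09 (SE 0.13, adjusted p = 0.623). *MB21D1*, which encodes the DNA sensor cGAS, gave 0.10 (SE 0.06, adjusted p = 0.211) without and 0.30 (SE 0.06, adjusted p = 0.00126) with TGFβ, the latter higher in both siPHF13 + TGFβ libraries but below the fold threshold.

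Of the 6 receptor genes 3 fell without TGFβ and 2 with it. *IFNAR1*, a subunit of the type I receptor, had 3110.0 and 3308 normalized counts in siControl and 1931 and 2214 in siPHF13 with a log2 fold change of -0.63 (SE 0.08, adjusted p = 1.79e-05), and *IFNAR2*, its partner, had 1499 and 1348 in siControl and 658 and 657 in siPHF13 with -1.11 (SE 0.09, adjusted p = 5.82e-07). *IL10RB*, a subunit of the type III receptor, gave -0.73 (SE 0.10, adjusted p = 6.81e-05) without and -0.55 (SE 0.10, adjusted p = 0.000593) with TGFβ. The interferon gamma receptor genes *IFNGR1* and *IFNGR2* gave -0.25 (SE 0.08, adjusted p = 0.0195) and -0.04 (SE 0.08, adjusted p = 0.673), and *IFNLR1*, the other type III receptor gene, gave the positive values 0.21 (SE 0.22, adjusted p = 0.462) and 0.30 (SE 0.22, adjusted p = 0.284). None of these 3 was called by limma. Of the receptor-bound kinase genes, *JAK1* gave -0.07 (SE 0.06, adjusted p = 0.4), *JAK2* -0.42 (SE 0.14, adjusted p = 0.0209) and *TYK2* -0.04 (SE 0.07, adjusted p = 0.711) without TGFβ, all below the fold threshold. *IRF1*, the factor that links to the interferon gamma response, had 6125 and 6777 in siControl and 2380.2 and 3013 in siPHF13 with -1.27 (SE 0.10, adjusted p = 3.33e-07), and 5301 and 5109.9 against 2915 and 2564 with TGFβ with -0.93 (SE 0.10, adjusted p = 4.87e-06). *IFNAR1*, *IFNAR2*, *IL10RB* and *IRF1* were lower in every siPHF13 library than in the controls. The other 4 of the 5 regulatory factor genes were not called by limma, with -0.34 (SE 0.11, adjusted p = 0.017) for *IRF2*, -0.28 (SE 0.07, adjusted p = 0.00629) for *IRF3*, 0.13 (SE 0.14, adjusted p = 0.464) for *IRF7* and -0.52 (SE 0.29, adjusted p = 0.167) for *IRF9* without TGFβ. *SOCS1*, an inhibitor of JAK signaling, fell at -1.07 (SE 0.21, adjusted p = 0.00081) and -1.05 (SE 0.21, adjusted p = 0.000811). The other 3 inhibitor genes, *SOCS3*, *PIAS1* and *PTPN2*, gave -0.05 (SE 0.07, adjusted p = 0.575), -0.12 (SE 0.12, adjusted p = 0.425) and 0.13 (SE 0.08, adjusted p = 0.201) without TGFβ and were not called. Among ligands, the low gene *IFNE* fell at -0.81 (SE 0.30, adjusted p = 0.0404) and -1.08 (SE 0.30, adjusted p = 0.00887), and *IFNL1* gave -0.46 (SE 0.74, adjusted p = 0.635) and -1.41 (SE 0.74, adjusted p = 0.13).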

How the data were processed

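RNA-seq of PANC-1 cells was analysed from 8 libraries in 4 groups of 2. Per the labels and the study's methods, the authors trimmed reads with Trim Galore 0.4.1, aligned them with STAR 2.7.0 to the hg19 transcriptome, counted exonic reads with HTSeq 0.12.4 and normalized with DESeq2. The annotation release and strand setting were not given in the sources used here. The deposited values are normalized counts, that is, a signal obtained as the gene count divided by a size factor by the authors. Tables of the authors' own comparisons (fold changes and p-values) were not used.

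All values of all 8 libraries were whole multiples of 1 step per library (steps 0.901 to 1.08; 100.0% of values whole within 0.001), which gave the reads per library. Genes with a normalized count of at least 10 in 2 libraries were kept, which removed 0. Log2(normalized count + 1) was fitted with limma 3.58.1 (trended prior variance, R 4.3.3) over all 8 libraries, with 4 residual degrees of freedom and two-sided tests. edgeR 4.0.16 (quasi-likelihood) and DESeq2 1.42.0 were run on recovered reads of 7 libraries, leaving out siPHF13 replicate 1, whose step of 0.995 was excluded by a limit set here on how near to 1 a step may lie, although its values were also whole multiples of it. The lone siPHF13 library was then assumed to vary like the others. Other alternatives changed the pseudocount, filter, scaling, fold threshold or libraries used, and a GC and length correction was added after seeing the data.

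Over all 13307 genes, libraries with the same replicate number did not deviate together (correlations from -0.09 to 0.05). Among the 51 effectors, replicate 1 was below replicate 2 for 40 in siControl and 44 in siPHF13, against 51.3% of all genes in each. It was below for 17 in siControl + TGFβ and 20 in siPHF13 + TGFβ. The effector list, families, classes and pathway list were chosen with earlier results of these data known, so no list was tested as a set. Of the pathway list, 1 gene is counted but not reported here. Values in every library were printed for effectors called in both depletion comparisons, called with TGFβ or in the interaction, for the effector of highest mean count and for PHF13. Promoters came from RefSeq (GRCh38.p14) and gene positions from GENCODE on GRCh37, where exon overlap between effectors and other genes was small (at most 5.4% of exon bases).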

Additional observations from a re-analysis of the deposited data

Results flagged for a closer look

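The response to TGFβ differed between siPHF13 and siControl cells for *IFIT2* and *IFIT3* by the interaction term. The log2 response of *IFIT2* was -1.24 in siControl and -0.45 in siPHF13 cells, a difference of 0.78 (limma, adjusted p = 0.0255), and both siControl + TGFβ libraries were below both siControl libraries. That of *IFIT3* was -0.83 and -0.07, a difference of 0.76 (limma, adjusted p = 0.046). edgeR called neither difference, and both were lost in 5 of the 8 fits that left out a library.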

How the results depend on the processing

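Of 874 alternatives for 49 named gene results, 838 kept direction and call, 36 lost the call and 0 reversed, and of 191 alternatives for counts and medians 163 stayed close and 28 moved. Part of the 838 could not change. Dropping the filter altered nothing because it removed 0 genes, and dropping the fold threshold cannot undo a call. Leaving out a library outside a comparison cannot move its fold change. The 838 therefore overstates how many alternatives put a result to the test. In siPHF13 against siControl, leaving out a library gave 22 to 29 calls and medians from -0.75 to -0.58, and the GC and length correction gave a median of -0.67. In siPHF13 + TGFβ against siControl + TGFβ, dropping the fold threshold gave 32 calls, and leaving out a library gave 18 to 20 calls and medians from -0.51 to -0.41. In siControl + TGFβ against siControl, using only the libraries compared gave 11 calls and dropping the fold threshold 18, and leaving out a library gave 3 to 9 calls and medians from -0.33 to -0.22. In siPHF13 + TGFβ against siPHF13, edgeR gave 1 call (median -0.12), DESeq2 gave 2 (median -0.13), dropping the fold threshold gave 1, and leaving out a library gave 0 to 2 calls and medians from -0.15 to 0.048. For the interaction, a minimum mean of 100 gave 1 call, edgeR 0 (median 0.064), DESeq2 a median of 0.061, and leaving out a library 0 to 3 calls and medians from 0.062 to 0.27. The causes of these shifts were not tested, though fits without a library have fewer residual degrees of freedom. With the replicate number as a block, the counts were 26, 20, 7, 0 and 2 for the same comparisons in this order, as without it, and the block changed no call of a named gene. With 2 libraries a group, and normalized counts below 20 for *CMPK2*, *HERC6* and *TRIM22* in siPHF13 cells, the values of these low genes are the least precise.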
